A study of Rattus norvegicus with 16 samples.

Results

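The lung comparison set 5 rats exposed to house dust mite (HDM) against 3 control rats, and its 8 lung arrays were taken from the 16 arrays of the series by their labels. The other 8 arrays hold adipose tissue of the same rats. All animals were male Brown Norway rats, an inbred strain prone to allergic responses, and they entered the experiment at 7 weeks of age. HDM rats received 45 µg HDM with aluminium hydroxide under the skin in the weekly sensitization and then repeated doses of 120 µg HDM through the nose, whereas control rats received saline with aluminium hydroxide and then saline through the nose. The adjuvant was therefore common to both groups, and 1 protocol and 1 end point were sampled. Lungs were rinsed in phosphate-buffered saline after sacrifice, and 50 ng of total RNA from each was labelled with Cy3 and hybridised to a 1-colour Agilent rat expression array. Each sample is a different rat, so the spread between samples is that between animals.

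House dust mite extract is a common airway allergen that carries proteases and microbial products. In a sensitised lung it engages epithelial alarmins, type 2 lymphocytes and, through pattern receptors and interleukin 1, the recruitment of neutrophils, eosinophils and monocytes from the blood. Glucocorticoid receptors, the circadian clock and the heat shock response are further regulators active in whole lung. To describe the response at the level of cells and pathways, 51 gene lists were used, 27 of them for cell types and 24 for pathways. The lists were chosen with earlier results of these data known, so their counts and ranks describe the response and are not independent support. In whole tissue, fewer cells of a type and less RNA per cell cannot be told apart.

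Levels are given as the log2 of a probe's background-corrected signal minus the log2 of the 75th percentile of its array, so a level of 0 equals the 75th percentile and a difference of 1 is a doubling. The 75th percentile signal ranged from 376 to 488 intensity units over the 8 lung arrays, and from 62.1 to 68.8% of the probes were well above background. The tissue label was borne out by lung markers. Surfactant protein C, Sftpc, had levels of 9.10, 9.11, 9.25, 8.97 and 8.91 in HDM rats 1 to 5 and 9.24, 9.01 and 9.19 in control rats 1 to 3. Those of Ager, a marker of alveolar type 1 cells, were 8.21, 8.18, 8.13, 8.24 and 8.10 in HDM rats 1 to 5 and 8.47, 8.28 and 8.40 in control rats 1 to 3. The reference genes Gapdh (log2 fold change 0.09 ± 0.11, adjusted p = 0.797) and Hprt1 (log2 fold change -0.05 ± 0.13, adjusted p = 0.924) did not pass the test. The 8 arrays lay on 1 slide, with HDM rats 1 to 4 in row 1 and HDM rat 5 and the 3 controls in row 2.

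Of 28384 probes that passed the detection filter, 433 were higher (1.53%) and 318 were lower (1.12%) in HDM rats at an adjusted p under 0.05 and more than 1.5-fold, together 2.65% of those tested (limma with Benjamini-Hochberg adjustment). The median size of these changes was 1.87-fold. With 1 probe per gene, 348 of 12452 tested genes were called (2.79%), 196 higher (1.57%) and 152 lower (1.22%), against a median log2 fold change of -0.03 over all tested genes. Over the 16678 gene symbols on the array, called or not tested alike, those shares were 1.18% and 0.911%. Of the 348 called genes, 61 higher and 28 lower ones were on at least 1 list and 259 were on none. The count was lower in several fits that left out 1 rat, at 353 probes without control rat 2, 431 without control rat 1 and 497 without HDM rat 1. With slide row as a block, an estimate that rests on HDM rat 5 against the controls, 80 probes were called, and an effect of position and the loss of the other HDM rats cannot be told apart there. All 751 called probes had groups that did not overlap, and over tested genes 7.5% had all HDM values above and 9.54% all HDM values below the controls.

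Neutrophil genes were the group with the most called members among the 27 cell type lists. This was the longest of those lists on the array, and it holds several of the 10 largest changes. Of 31 neutrophil genes on the array, 25 passed the filter, 17 were higher and 1 was lower in HDM rats, with a median log2 fold change of 1.07 over the 31. The shares to set beside this and the later list counts are 1.18% higher and 0.911% lower over all genes on the array. The mean of the list, set against the control mean, was 1.56, 1.66, 1.78, 1.53 and 1.34 log2 units in HDM rats 1 to 5 and 0.09, -0.10 and 0.01 in control rats 1 to 3. Without each rat in turn 14 to 19 members were called higher, and 11 with slide row as a block.

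The alarmin subunits S100a8 and S100a9, which together form calprotectin of the neutrophil cytosol, were among the 10 largest changes in the lung. S100a8 levels were 6.30, 5.86, 6.85, 5.95 and 5.53 in HDM rats 1 to 5 and 1.80, 1.81 and 1.30 in control rats 1 to 3. The HDM lungs lay together and well above the controls, and the gene was higher (log2 fold change 4.46 ± 0.28, adjusted p = 9.77e-05). S100a9 stood at 6.68, 6.30, 7.23, 6.35 and 6.21 in HDM rats 1 to 5 and 2.48, 2.58 and 2.33 in control rats 1 to 3 and was also higher (log2 fold change 4.09 ± 0.22, adjusted p = 4.89e-05). HDM rat 3 had the highest level of both subunits.

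The metalloproteinase genes Mmp8 and Mmp9 and the stefin Stfa2l2 were higher too. Mmp8, neutrophil collagenase, had levels of -0.25, -0.70, 0.02, -0.40 and -1.14 in HDM rats 1 to 5 and -4.58, -4.42 and -4.33 in control rats 1 to 3 (log2 fold change 3.95 ± 0.24, adjusted p = 8.54e-05). Gelatinase B, Mmp9, lay at -1.16, -1.58, -1.02, -0.85 and -1.66 in HDM rats 1 to 5 and -4.71, -4.33 and -4.41 in control rats 1 to 3 (log2 fold change 3.23 ± 0.20, adjusted p = 9.77e-05). In both, HDM rat 5 was the lowest of the HDM group and still above every control. The rat stefin Stfa2l2, an inhibitor of cysteine proteases, showed 2.08, 1.95, 2.18, 2.15 and 1.71 in HDM rats 1 to 5 and -2.69, -2.23 and -2.28 in control rats 1 to 3 (log2 fold change 4.42 ± 0.15, adjusted p = 3.5e-06), with little spread within either group.

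Receptors on the neutrophil list gave calls in both directions, with Cxcr2 and Csf3r higher and Fpr1 lower. For Cxcr2, the receptor of the CXC chemokines that attract neutrophils, levels were 0.09, 0.02, 0.20, 0.42 and -0.05 in HDM rats 1 to 5 and -2.18, -2.46 and -2.32 in control rats 1 to 3 (log2 fold change 2.46 ± 0.13, adjusted p = 3.73e-05). Csf3r, the receptor of granulocyte colony-stimulating factor, was at 0.05, 0.14, 0.24, 0.51 and 0.32 in HDM rats 1 to 5 and -1.82, -1.78 and -2.18 in control rats 1 to 3 (log2 fold change 2.18 ± 0.14, adjusted p = 9.79e-05). Neither gene's groups overlapped. Prok2, a secreted ligand expressed by neutrophils, was well above background in all 5 HDM lungs and in none of the 3 controls, at -1.71, -1.86, -1.49, -1.85 and -2.52 in HDM rats 1 to 5 and -5.58, -7.67 and -6.83 in control rats 1 to 3. Its fold is therefore a bound: for each control array the larger of the probe's signal and of the dimmest signal detected there was used, and against their mean Prok2 was at least 16.3-fold higher (adjusted p = 0.000698). The pattern receptor Clec4e, again detected in the HDM group only, was at least 3.51-fold higher (adjusted p = 0.00754). Prok2 and Clec4e passed the filter only through the HDM group, and their p-values rest on control signals that were not well above background. Where a probe had to be detected on all 8 arrays, 15 neutrophil genes were called higher.

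Among further members, log2 fold changes were 2.77 for Nlrp12, 2.40 for Pglyrp1, a peptidoglycan-binding protein of granules, 1.62 for the histone-citrullinating enzyme Padi4, 1.61 for Clec4d and 1.26 for the antimicrobial peptide Camp. The granule protein genes Elane, Prtn3, Ctsg, Ltf and Ngp, which are transcribed mainly in bone marrow precursors, did not pass the detection filter. The member that fell was Fpr1, a formyl peptide receptor, at -0.96, -0.65, -0.67, -0.41 and -0.67 in HDM rats 1 to 5 and -0.06, -0.10 and 0.12 in control rats 1 to 3 (log2 fold change -0.66 ± 0.13, adjusted p = 0.0262). It lost the call in 5 of the 8 fits that left out 1 rat. Cxcr1, at a log2 fold change of -0.44, and the lipocalin Lcn2, at 0.22, were not called.

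**Figure D1:**
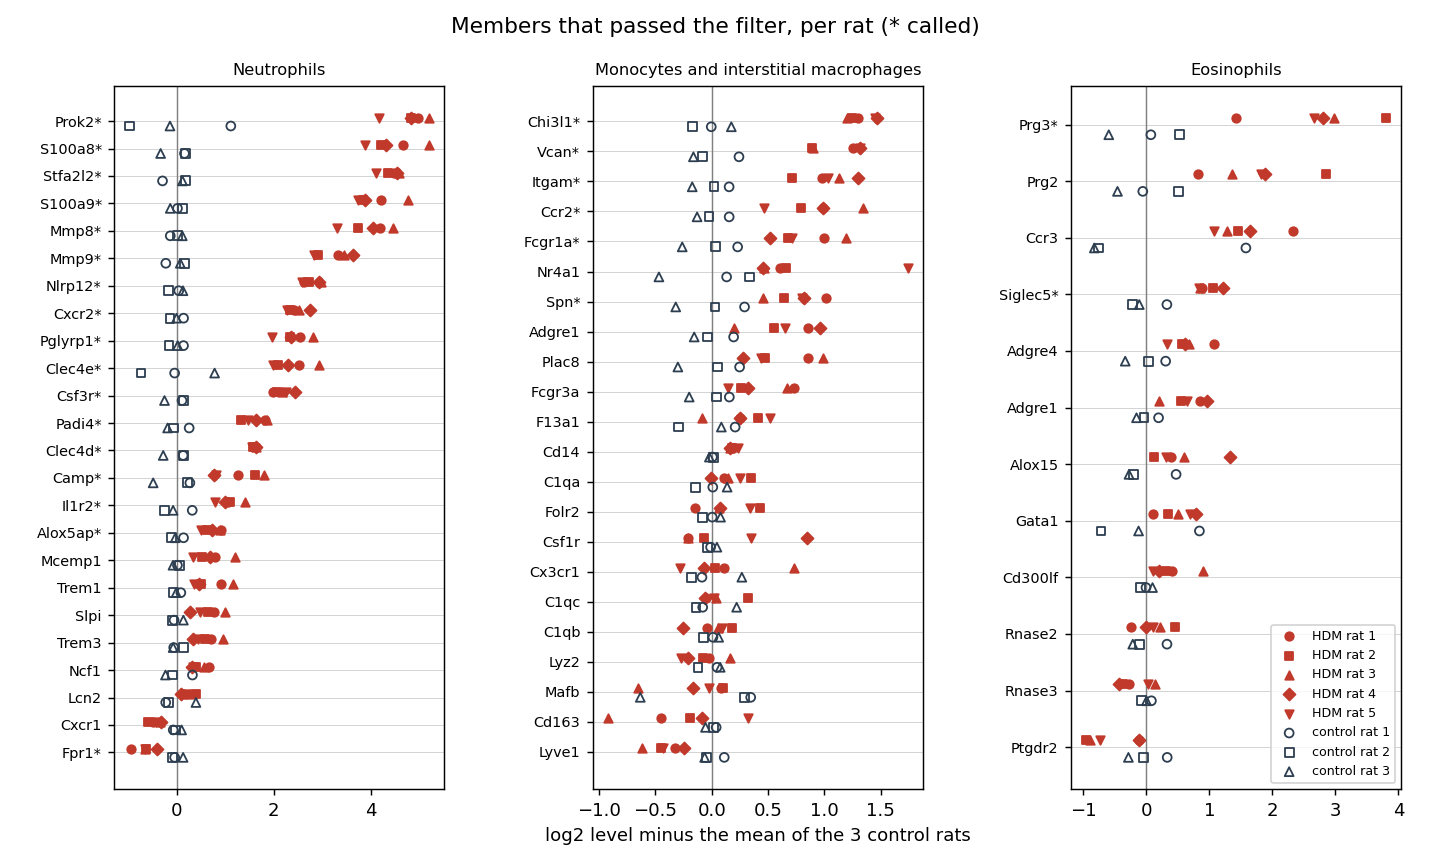
Members of the neutrophil, monocyte and eosinophil lists that passed the filter, apart from 1 not reported here, as log2 level minus the mean of the 3 control rats (x axis), with 1 filled red marker per HDM rat, 1 open marker per control rat and an asterisk for called genes. The 5 HDM lungs lie to the right of the controls in most neutrophil rows, with S100a8 at a log2 fold change of 4.46 and Fpr1 on the other side at -0.66. Prok2, Clec4e and Prg3 were undetected in the controls and are drawn at their measured signals, so their distances are not fold sizes.

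Monocyte and interstitial macrophage genes formed a second group. Of 22 members on the array, all passed the filter, 6 were higher and 0 lower, and the median log2 fold change was 0.22. The mean of the list was 0.34 to 0.45 log2 units above the control mean in the HDM lungs and -0.08 to 0.11 in the controls. The called members fell to 3 without HDM rat 1, HDM rat 2 or any 1 control, and to 1 with slide row as a block.

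Chi3l1, a chitinase-like protein secreted by activated macrophages, neutrophils and epithelium, had levels of 1.81, 1.76, 1.71, 1.98 and 1.95 in HDM rats 1 to 5 and 0.50, 0.34 and 0.68 in control rats 1 to 3 (log2 fold change 1.33 ± 0.11, adjusted p = 0.000543). The HDM values lay close together and clear of the controls. Ccr2, the receptor that brings inflammatory monocytes from blood into tissue, was at -1.63, -1.83, -1.27, -1.63 and -2.15 in HDM rats 1 to 5 and -2.46, -2.64 and -2.75 in control rats 1 to 3 (log2 fold change 0.91 ± 0.18, adjusted p = 0.0304). The high-affinity immunoglobulin G receptor Fcgr1a stood at 3.89, 3.57, 4.08, 3.41 and 3.60 in HDM rats 1 to 5 and 3.12, 2.92 and 2.63 in control rats 1 to 3 (log2 fold change 0.82 ± 0.18, adjusted p = 0.0401), with HDM rat 3 highest. Itgam, the integrin alpha M shared by neutrophils and monocytes, Vcan, a matrix proteoglycan of classical monocytes, and Spn, leukosialin, rose by log2 fold changes of 1.03, 1.13 and 0.74. Spn was called by 1 of its 2 tested probes. The list's defining markers Csf1r and Cx3cr1 were not called, at 0.14 and 0.10.

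Alveolar macrophage genes gave a different picture. None of 15 tested members was called, the median log2 fold change was -0.10, and the list mean ran from -0.11 to -0.03 in HDM lungs and from -0.09 to 0.08 in controls. Marco, a scavenger receptor of these cells, and Siglec1, sialoadhesin, had log2 fold changes of -0.40 ± 0.19 and -0.21 ± 0.16. Pparg, the nuclear receptor that directs their differentiation, had levels of 2.04, 1.71, 1.86, 1.77 and 1.91 in HDM rats 1 to 5 and 2.45, 2.26 and 2.34 in control rats 1 to 3. All HDM lungs were below the controls, and the difference passed the adjusted test but not the fold threshold (log2 fold change -0.49 ± 0.10, adjusted p = 0.0357). Cd68, found in macrophages of every kind, was at 0.27 ± 0.09 and not called.

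Eosinophil genes were fewer and more variable. Of 14 on the array, 12 passed the filter, 2 were higher and 0 lower, with a median log2 fold change of 0.60. Siglec5, an inhibitory sialic acid receptor, was at 0.43, 0.60, 0.39, 0.76 and 0.37 in HDM rats 1 to 5 and -0.13, -0.67 and -0.57 in control rats 1 to 3 (log2 fold change 0.97 ± 0.15, adjusted p = 0.0105). Prg3, a granule protein of the major basic protein family, was undetected in all 3 controls and was at least 3.29-fold higher (adjusted p = 0.0176). Its relative Prg2, major basic protein itself, had levels of -0.93, 1.10, -0.39, 0.14 and 0.07 in HDM rats 1 to 5 and -1.80, -1.23 and -2.21 in control rats 1 to 3. The groups did not overlap, HDM rat 2 was highest, and Prg2 was not called (log2 fold change 1.75 ± 0.42, adjusted p = 0.06). The eotaxin receptor Ccr3 stood at -1.89, -2.76, -2.94, -2.57 and -3.14 in HDM rats 1 to 5 and -2.63, -4.97 and -5.04 in control rats 1 to 3. Control rat 1 lay within the HDM range, and the difference missed the test (log2 fold change 1.56 ± 0.54, adjusted p = 0.182). Epx, eosinophil peroxidase, did not pass the filter, though it was well above background in 4 of the 5 HDM lungs and in 0 controls. Prg3 passed the filter only through the HDM group. The 2 called members became 1 where a probe had to be detected on all 8 arrays, 0 without control rat 3, 1 without control rat 2 and 0 with slide row as a block.

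Mast cell, basophil and lymphocyte genes gave few calls. Hdc, the histamine-forming decarboxylase of mast cells and basophils, was higher at 2.23, 2.14, 2.68, 1.82 and 1.87 in HDM rats 1 to 5 and 1.37, 1.28 and 1.19 in control rats 1 to 3 (log2 fold change 0.87 ± 0.19, adjusted p = 0.0425), while the mast cell protease Cpa3 and the immunoglobulin E receptor chains Fcer1a and Ms4a2 were not called, at 0.18, 0.62 and 0.11. That made 1 of 16 mast cell and basophil genes on the array, and it became 0 in 4 of the 8 fits without 1 rat. Among B cell genes 1 of 14 was higher, the tetraspanin Cd37 (log2 fold change 0.60 ± 0.11), with 0 called in 4 of those 8 fits. Cd79b, a chain of the B cell receptor, was at 0.56 ± 0.10 and fell short of the fold threshold.

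No gene of the T cell list was called, with 25 on the array, 22 tested and a median log2 fold change of 0.05. The chains of the T cell receptor complex Cd3e, Cd3g and Cd3d had log2 fold changes of 0.15 ± 0.10, 0.05 ± 0.11 and 0.01 ± 0.12. Cd8a was at -0.68, -0.95, -0.86, -0.74 and -0.60 in HDM rats 1 to 5 and -1.28, -1.22 and -1.41 in control rats 1 to 3. The groups were apart and the test was passed, but not the fold threshold (log2 fold change 0.54 ± 0.11, adjusted p = 0.0297). Of 19 genes for NK cells and cytotoxic lymphocytes 1 was called, Xcl1, the chemokine lymphotactin, at -1.0, -1.39, -1.02, -1.40 and -1.27 in HDM rats 1 to 5 and -2.07, -2.29 and -2.47 in control rats 1 to 3 (log2 fold change 1.06 ± 0.14, adjusted p = 0.00568). The NK receptors Ncr1 and Klrd1 were at 0.42 ± 0.19 and 0.18 ± 0.19. Of 10 plasma cell genes, Derl3, a protein of endoplasmic reticulum degradation, fell (log2 fold change -0.76 ± 0.13, adjusted p = 0.0147), by 1 of its 2 tested probes.

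Structural and barrier cells of the lung showed few called genes. Alveolar type 1 and type 2 cells each had 15 genes tested and 0 called, with median log2 fold changes of -0.18 and -0.10. In 7 of the type 1 genes and 3 of the type 2 genes all HDM values were below the controls, against 9.54% of all tested genes. The type 1 list mean ran from -0.28 to -0.05 in HDM lungs and from -0.04 to 0.04 in controls. That of type 2 ran from -0.24 to -0.04 and from -0.02 to 0.03. Sftpb and Sftpa1, proteins of surfactant, were at -0.19 ± 0.08 and -0.16 ± 0.09. Endothelial cells had 22 genes tested and 0 called, among them the growth factor receptor Kdr at 0.21 ± 0.18 and the junction proteins Pecam1 at -0.11 ± 0.10 and Cdh5 at -0.09 ± 0.27. Nos3, endothelial nitric oxide synthase, was at -0.58, -0.73, -0.91, -0.28 and -0.27 in HDM rats 1 to 5 and 0.20, 0.12 and -0.14 in control rats 1 to 3, a difference that missed the adjusted test (log2 fold change -0.61 ± 0.17, adjusted p = 0.0948).

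Airway epithelial genes varied widely between the rats. The mean of 13 club cell genes was 0.28, -0.01, -0.73, -0.61 and 1.02 in HDM rats 1 to 5 and 0.17, -0.09 and -0.08 in the controls, and 0 of them were called. Scgb1a1, the club cell secretory protein, varied little, at 7.64, 7.62, 7.77, 7.76 and 7.69 in HDM rats 1 to 5 and 7.78, 7.65 and 7.99 in control rats 1 to 3 (log2 fold change -0.11 ± 0.10, adjusted p = 0.676). Scgb3a1, a secretoglobin of larger airways, ranged from 2.29 in HDM rat 4 to 5.59 in HDM rat 5. The basal keratin Krt14 spread likewise, from -4.57 in HDM rat 4 to -0.16 in HDM rat 5, and was not called. Of the basal cell genes only Ngfr, the low-affinity nerve growth factor receptor, was called higher (log2 fold change 0.82 ± 0.16, adjusted p = 0.0274), and the call was lost in 6 of the 8 fits without 1 rat and with slide row as a block. For goblet cells and mucus, 17 genes were on the array, 10 passed the filter and 0 were called. The gel-forming mucins Muc5ac and Muc5b matched no symbol of the array annotation and are not among them. Agr2, a mucin-folding protein, was at -0.03 ± 0.38, Slc26a4, the anion exchanger pendrin, at 0.57 ± 0.20 and Spdef, a regulator of the goblet program, at -0.29 ± 0.11. Ciliated cells also gave 0 calls of 11.

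Markers of other tissues differed between the rats more than between the groups. The mean of 12 adipocyte genes was 1.13, 1.59, -0.71, -0.67 and 2.18 in HDM rats 1 to 5 and -0.31, -0.91 and 1.22 in control rats 1 to 3. For 12 cardiac muscle genes, which are also expressed in the sleeve of muscle around pulmonary veins, these were -0.09, -0.13, -1.22, -1.01 and 1.03, and -0.24, -0.48 and 0.72. No gene of either list was called. HDM rats 3 and 4 were low and HDM rat 5 and control rat 3 high in both, and the groups overlapped. Adipoq, the adipocyte hormone, ranged from -2.01 to 2.29 in HDM lungs and from -1.99 to 1.16 in controls. Lymph node, lymphatic, mesothelial, platelet, red blood cell and skeletal muscle lists also gave 0 calls. The neutrophil, monocyte, eosinophil, heat shock and glucocorticoid lists had all HDM means on one side of the controls. The same held for other lists, among them alveolar type 1 and type 2 cells and inflammasome, interferon-stimulated and pattern recognition genes. The part of the adipocyte, cardiac, club and basal cell lists in the other results was not tested.

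**Figure D2:**
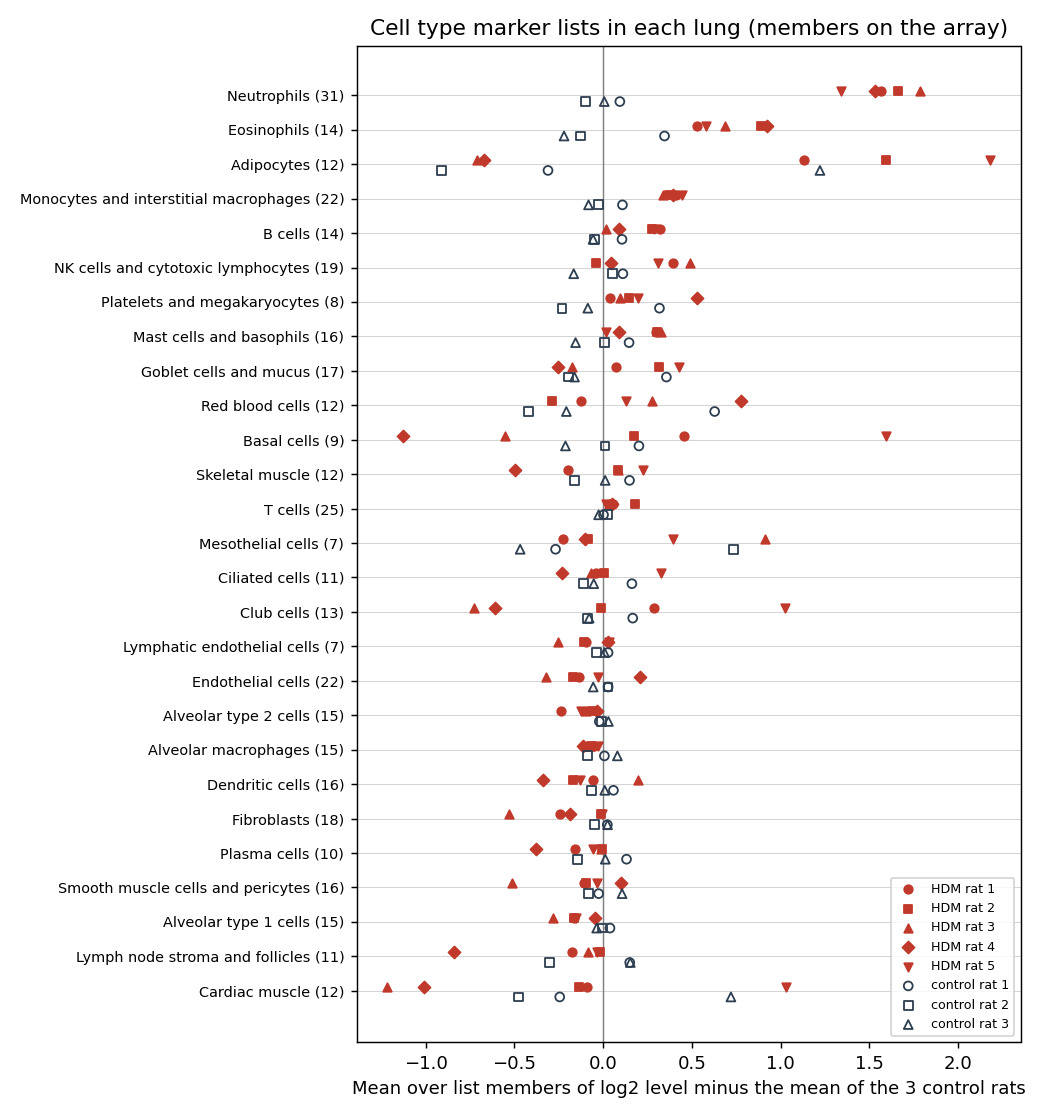
Mean over the members of each cell type list on the array (number in brackets) of the log2 level minus the mean of the 3 control rats, 1 marker per rat. Neutrophil genes stand apart at 1.34 to 1.78 in HDM rats, whereas adipocyte, basal, club and cardiac muscle genes spread widely within both groups or within the HDM group.

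Among the pathway lists, the inflammasome genes had the highest share of members called higher. Inflammasomes are cytosolic complexes that activate caspase 1 and release mature interleukin 1. Of 13 members, all were tested, 6 were higher and 0 lower, with a median log2 fold change of 0.43. Il1b, the cytokine they process, had levels of 3.41, 4.04, 4.12, 3.79 and 4.63 in HDM rats 1 to 5 and 2.49, 2.45 and 2.18 in control rats 1 to 3 (log2 fold change 1.62 ± 0.24, adjusted p = 0.00972). HDM rat 5 was highest and HDM rat 1 lowest of its group, and no HDM lung reached down to the controls. The sensor Nlrp3 was at -1.24, -1.21, -1.43, -1.20 and -1.20 in HDM rats 1 to 5 and -1.88, -1.93 and -2.16 in control rats 1 to 3 (log2 fold change 0.73 ± 0.10, adjusted p = 0.00694), called by 2 of its 3 tested probes. Mefv, or pyrin, Nlrc4, a sensor of bacterial flagellin, and Pstpip1, a partner of pyrin, rose by 1.13, 0.95 and 0.68. The sixth was Nlrp12, a regulator in myeloid cells, at -0.47, -0.37, -0.11, -0.15 and -0.52 in HDM rats 1 to 5 and -3.06, -3.27 and -2.97 in control rats 1 to 3 (log2 fold change 2.77 ± 0.13, adjusted p = 2.04e-05). The count was 4 without control rat 2 or 3 and 2 with slide row as a block.

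Interleukin 1 antagonists rose beside the cytokine. Il1rn, the secreted receptor antagonist, was at 3.20, 2.87, 3.29, 2.80 and 2.68 in HDM rats 1 to 5 and 1.69, 1.46 and 1.59 in control rats 1 to 3 (log2 fold change 1.39 ± 0.16, adjusted p = 0.00252). Il1r2, a decoy receptor, was at -0.03, 0.01, 0.32, -0.09 and -0.30 in HDM rats 1 to 5 and -0.77, -1.33 and -1.16 in control rats 1 to 3 (log2 fold change 1.07 ± 0.17, adjusted p = 0.0112). With Il1b, these were the 3 called members among 27 neutrophil-attracting and inflammatory cytokine genes. Of the 22 that passed the filter, 7 had all HDM values above the controls, against 7.5% of all tested genes. The chemokines Cxcl1 and Cxcl2 were not called and had levels that overlapped between groups. Cxcl2 was at 1.20 in HDM rat 5 and between -1.93 and -0.35 in the other HDM lungs. Il6, Il17a, Il17f and Il22 did not pass the filter.

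Receptors for chemoattractants and lipid mediators followed. Of 35 on the array, 33 passed the filter, 8 were higher and 1 lower, with a median log2 fold change of 0.34. Ptafr, the receptor of platelet-activating factor, had levels of 1.75, 1.80, 1.64, 1.83 and 1.84 in HDM rats 1 to 5 and 1.35, 1.09 and 0.91 in control rats 1 to 3. The HDM lungs spanned 1.64 to 1.84 and did not overlap the controls (log2 fold change 0.66 ± 0.11, adjusted p = 0.0179). Leaving out HDM rat 1 or 2 or control rat 2 or 3 took its adjusted p to between 0.0519 and 0.0944, and its exact two-sided permutation p over the 56 splits of the rats was 0.0179, the smallest such a design allows. Ccr1, a chemokine receptor of myeloid cells, was at -1.01, -1.21, -0.59, -1.07 and -1.21 in HDM rats 1 to 5 and -2.11, -2.09 and -2.03 in control rats 1 to 3 (log2 fold change 1.06 ± 0.15, adjusted p = 0.0071). The orphan or metabolite receptors Gpr84, a receptor of medium-chain fatty acids, and Gpr65, a proton sensor, were higher by 1.56 ± 0.26 and 0.91 ± 0.11. P2ry13 and Gpr34, which bind nucleotides and lysophospholipid, were at 0.79 ± 0.12 and 0.74 ± 0.14. The 8 became 5 without HDM rat 1, HDM rat 2 or control rat 3, 3 without control rat 2 and 1 with slide row as a block.

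Enzymes of lipid mediator synthesis and breakdown included 3 higher and 0 lower genes of 20. Alox5ap, the protein that presents arachidonic acid to 5-lipoxygenase, was at 1.98, 1.68, 1.95, 1.78 and 1.56 in HDM rats 1 to 5 and 1.20, 0.95 and 1.03 in control rats 1 to 3 (log2 fold change 0.73 ± 0.12, adjusted p = 0.0157). Pla2g7, which degrades platelet-activating factor, was at 2.06, 1.88, 2.12, 2.00 and 1.91 in HDM rats 1 to 5 and 1.39, 0.64 and 0.45 in control rats 1 to 3 (log2 fold change 1.17 ± 0.19, adjusted p = 0.0147), and Cyp4f18, which inactivates leukotriene B4, rose by 1.66 ± 0.27. Control rat 1 was the highest control in each of the 3, and 0 of them were called without control rat 2 or without control rat 3. The lipoxygenase itself, Alox5, was at -0.03 ± 0.11.

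Adhesion molecules that slow and arrest leukocytes on the vessel wall gave 4 higher and 0 lower genes of 18, with 4 in each fit without 1 rat and 2 with slide row as a block. Sele, E-selectin of activated endothelium, had levels of -1.77, -1.82, -1.71, -1.52 and -1.61 in HDM rats 1 to 5 and -4.64, -4.17 and -4.82 in control rats 1 to 3 (log2 fold change 2.86 ± 0.15, adjusted p = 4.08e-05). The HDM lungs lay close together and far above the controls. Itgb7, an integrin of lymphocytes and eosinophils, was higher at 1.44, 1.36, 1.27, 1.71 and 1.51 in HDM rats 1 to 5 and 0.74, 0.57 and 0.28 in control rats 1 to 3 (log2 fold change 0.93 ± 0.14, adjusted p = 0.00945). Itgam, given with the monocyte genes, was also among the 4.

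Pattern recognition genes numbered 18, all tested, of which 4 were higher and 0 lower with a median log2 fold change of 0.29. Tlr2, the receptor of bacterial lipoproteins, was at 2.17, 2.15, 2.50, 2.18 and 2.09 in HDM rats 1 to 5 and 1.28, 1.11 and 0.87 in control rats 1 to 3 (log2 fold change 1.13 ± 0.13, adjusted p = 0.00287). Its partner Tlr1 rose by 0.95 ± 0.13 and Tlr8, which senses single-stranded RNA, by 0.77 ± 0.16. The lectin Clec4a was called by 1 of its 2 tested probes. The count was 2 without control rat 2 and 0 with slide row as a block.

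T cell receptor, cytokine receptor and JAK-STAT signalling gave 5 higher and 0 lower of 33, with a median log2 fold change of 0.15. Socs3, a feedback inhibitor induced by STAT3, had levels of 3.47, 3.89, 3.93, 4.28 and 4.14 in HDM rats 1 to 5 and 2.71, 2.90 and 2.66 in control rats 1 to 3 (log2 fold change 1.18 ± 0.17, adjusted p = 0.00931). Jak3, the kinase of the common gamma chain, was at 2.77, 2.82, 2.70, 2.67 and 2.71 in HDM rats 1 to 5 and 2.17, 2.15 and 1.97 in control rats 1 to 3 (log2 fold change 0.64 ± 0.09, adjusted p = 0.00646). Vav3, a guanine exchange factor downstream of antigen receptors and integrins, was at 1.14, 1.13, 1.02, 1.23 and 0.96 in HDM rats 1 to 5 and 0.53, 0.50 and 0.44 in control rats 1 to 3 and lay just over the fold threshold (log2 fold change 0.61 ± 0.09, adjusted p = 0.0101). Nedd9, a scaffold of integrin signals, rose by 0.73 ± 0.12. These calls numbered 2 without control rat 2, 1 without control rat 3 and 0 with slide row as a block.

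Type 2 genes were represented by 28 on the array, of which 22 passed the filter, 2 were higher and 0 lower, with a median log2 fold change of 0.17. The called ones were Chi3l1 and the monocyte chemokine Ccl7, at -1.21, -1.04, -0.86, -1.46 and -0.74 in HDM rats 1 to 5 and -1.75, -2.10 and -2.77 in control rats 1 to 3 (log2 fold change 1.15 ± 0.24, adjusted p = 0.0377). Both are also produced outside type 2 responses. The cytokines that name the response were faint: Il4 was at -3.83, -4.33, -3.49, -4.33 and -4.61 in HDM rats 1 to 5 and -4.14, -5.21 and -5.26 in control rats 1 to 3 (log2 fold change 0.75 ± 0.32, adjusted p = 0.285), Il5 at a log2 fold change of 0.29 ± 0.21, and Il13 and Il9 did not pass the filter. The alarmin Il33 had levels of 4.50, 4.50, 4.35, 4.71 and 4.29 in HDM rats 1 to 5 and 3.97, 4.00 and 3.99 in control rats 1 to 3. All HDM lungs were above the controls, and the test but not the fold threshold was passed (log2 fold change 0.48 ± 0.11, adjusted p = 0.049). Ccl7 was the member lost in 6 of the 8 fits without 1 rat, where 1 was called.

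Interferon-stimulated genes showed small differences in one direction. All 26 on the array had a positive log2 fold change with a median of 0.36, against 47.9% positive over all genes on the array, and 3 of them were called higher and 0 lower. Ifit3, which restrains viral RNA translation, was at -0.45, -0.28, -0.07, -0.36 and -0.04 in HDM rats 1 to 5 and -1.41, -1.25 and -1.18 in control rats 1 to 3 (log2 fold change 1.04 ± 0.12, adjusted p = 0.00325). Gbp5, a guanylate-binding protein, and Oasl, a relative of the oligoadenylate synthetases, rose by 0.72 ± 0.11 and 0.87 ± 0.14. Irf1, a transcription factor of the pathway, was at 0.24 ± 0.08 and not called. With slide row as a block 0 were called.

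Genes of matrix and vessel wall contributed called members in both directions. Airway remodelling gave 1 higher and 1 lower of 22 genes on the array, and complement and coagulation 1 and 1 of 23. Of 22 metalloproteinase, adamalysin and inhibitor genes 2 were higher, Mmp8 and Mmp9, and 1 was lower. Ccn2, connective tissue growth factor, fell, at 2.58, 2.69, 2.68, 2.92 and 3.17 in HDM rats 1 to 5 and 4.39, 4.43 and 4.15 in control rats 1 to 3 (log2 fold change -1.51 ± 0.15, adjusted p = 0.00128). Adamts9, a protease that cleaves versican, was lower at 0.19, 0.50, 0.24, 0.79 and 0.29 in HDM rats 1 to 5 and 2.06, 1.67 and 1.60 in control rats 1 to 3 (log2 fold change -1.37 ± 0.17, adjusted p = 0.00391), while versican, Vcan, was higher as given with the monocyte genes. Plat, tissue plasminogen activator, fell at 3.87, 3.94, 3.78, 4.04 and 4.01 in HDM rats 1 to 5 and 4.60, 4.54 and 4.61 in control rats 1 to 3 (log2 fold change -0.66 ± 0.09, adjusted p = 0.00663), and properdin, Cfp, which stabilises the alternative complement convertase, rose by 0.85 ± 0.13. The fibrillar collagens Col1a1, Col1a2 and Col3a1 were not called, at -0.29 ± 0.36, -0.31 ± 0.28 and -0.33 ± 0.26, with HDM rat 3 below every other lung. Myh11, Acta2 and Tagln of smooth muscle were at -0.09, -0.09 and -0.14 and 0 of 16 genes of that list were called. Ncf4, a cytosolic subunit of the phagocyte NADPH oxidase, was the 1 called gene of its list, at 2.71, 2.46, 2.85, 2.48 and 2.47 in HDM rats 1 to 5 and 1.74, 1.56 and 1.34 in control rats 1 to 3 (log2 fold change 1.04 ± 0.13, adjusted p = 0.00497). With slide row as a block Ccn2, Adamts9, Vcan, Plat, Cfp and Ncf4 all lost the call.

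Several pathways had no called member, or one. Cell cycle genes gave 0 of 24, with a median log2 fold change of -0.17, and MHC class II presentation 0 of 14, with RT1-DMa and RT1-DMb at 0.29 ± 0.09 and 0.34 ± 0.10. Cholesterol, fatty acid and xenobiotic genes gave 0 of 20, 0 of 24 and 0 of 20. In glycolysis and hypoxia, P4ha1, a collagen prolyl hydroxylase, fell (log2 fold change -0.98 ± 0.11, adjusted p = 0.00274) as the 1 of 19. In the immediate early list 1 of 20 fell, the nuclear receptor Nr4a3 (log2 fold change -1.78 ± 0.38, adjusted p = 0.0385), a call lost in 6 of the 8 fits without 1 rat and with slide row as a block, and the mean of the list was 1.14 in HDM rat 5 and between -0.02 and 0.24 in the other HDM lungs. Fos, a subunit of AP-1, was at 2.59 in HDM rat 5 and between -0.89 and 0.59 in the others.

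**Figure D3:**
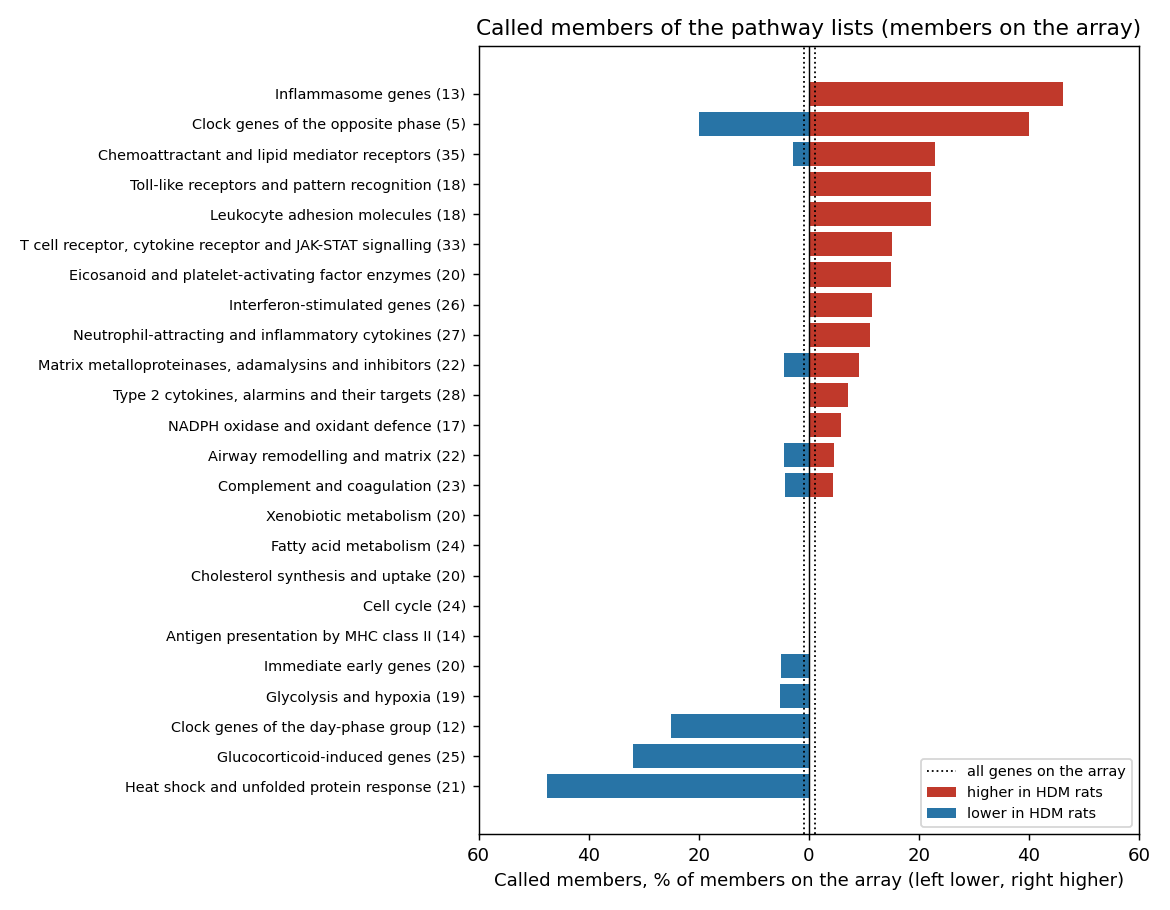
Share of the members of each pathway list on the array (number in brackets) that were called higher (red, to the right) or lower (blue, to the left) in HDM lungs, in percent. Dotted lines mark the shares over all genes on the array, 1.18% higher and 0.911% lower, and the lists with the largest shares lower are heat shock, glucocorticoid-induced and day-phase clock genes.

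Chaperone genes were the list with the most members lower. Heat shock factors induce cytosolic chaperones when proteins unfold, and the unfolded protein response does the same for the endoplasmic reticulum. Of 21 genes of these responses on the array, all were tested, 10 were lower and 0 higher, with a median log2 fold change of -0.50. The mean of the list was -0.64, -0.62, -0.64, -0.58 and -0.62 in HDM rats 1 to 5 and 0.02, -0.06 and 0.04 in control rats 1 to 3. Without control rat 1, 2 or 3 the called members numbered 5, 5 and 6, and with slide row as a block 1.

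Cytosolic chaperones and their partners made up 8 of the 10 called members. Hsph1, a nucleotide exchange factor of Hsp70, was at -1.80, -1.89, -2.07, -1.78 and -1.63 in HDM rats 1 to 5 and -0.26, -0.55 and -0.51 in control rats 1 to 3 (log2 fold change -1.39 ± 0.12, adjusted p = 0.000678). Its partner Dnaja1, a J-domain co-chaperone, was at 1.75, 1.73, 1.88, 1.73 and 1.67 in HDM rats 1 to 5 and 3.07, 2.91 and 2.98 in control rats 1 to 3 (log2 fold change -1.23 ± 0.09, adjusted p = 0.000195). The inducible Hsp70 gene Hspa1a stood at 1.80, 1.94, 1.60, 2.49 and 2.79 in HDM rats 1 to 5 and 3.76, 3.62 and 3.69 in control rats 1 to 3 (log2 fold change -1.57 ± 0.26, adjusted p = 0.0142), and HDM rats 4 and 5 were closest to the controls. Fkbp4, Chordc1, Stip1, Hspb1 and Hsp90ab1, which serve the Hsp90 cycle or are small or large heat shock proteins, had log2 fold changes of -1.05, -0.94, -0.93, -0.69 and -0.66. In the endoplasmic reticulum Hspa5, also called BiP, and Creld2 fell by 0.65 and 0.59 on the log2 scale.

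Promoter windows, from 250 bases before to 50 bases after the annotated start, were read from RefSeq for the genome build GRCr8, and 20 of the 21 heat shock list genes had one. Those of called chaperones that share a motif are shown. The heat shock element was searched as GAANNTTCNNGAA and, on the other strand, as TTCNNGAANNTTC. It occurred in 6 of the 20 windows (30%), those of Hsph1, Dnaja1 and Chordc1, which were called, and of Hspa8, Hspd1 and Hspe1, which were not. Over all 33469 windows it occurred in 267 (0.798%), and among the 10159 tested genes with a window in 47 (0.463%). In the 126 windows of genes called lower it was found in 5 (3.97%) and in the 159 of genes called higher in 2 (1.26%). The 5 include Hsph1, Dnaja1 and Chordc1, so this count is not separate from that of the list. Capitals mark the matches, all on the plus strand windows of chr12:10427118-10427417, chr5:60638154-60638453 and chr8:23650571-23650870.
Hsph1: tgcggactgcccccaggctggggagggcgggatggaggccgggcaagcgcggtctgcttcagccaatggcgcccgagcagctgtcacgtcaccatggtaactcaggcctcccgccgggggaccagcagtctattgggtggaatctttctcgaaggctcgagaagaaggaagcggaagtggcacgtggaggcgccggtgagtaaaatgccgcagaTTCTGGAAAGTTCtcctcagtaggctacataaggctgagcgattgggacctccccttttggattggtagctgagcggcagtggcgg
Dnaja1: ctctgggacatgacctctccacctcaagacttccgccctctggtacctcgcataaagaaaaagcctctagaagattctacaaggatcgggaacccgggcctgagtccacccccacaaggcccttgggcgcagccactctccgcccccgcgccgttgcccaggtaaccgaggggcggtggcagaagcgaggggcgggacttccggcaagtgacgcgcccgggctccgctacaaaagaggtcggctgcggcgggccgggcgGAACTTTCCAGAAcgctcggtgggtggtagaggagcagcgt
Chordc1: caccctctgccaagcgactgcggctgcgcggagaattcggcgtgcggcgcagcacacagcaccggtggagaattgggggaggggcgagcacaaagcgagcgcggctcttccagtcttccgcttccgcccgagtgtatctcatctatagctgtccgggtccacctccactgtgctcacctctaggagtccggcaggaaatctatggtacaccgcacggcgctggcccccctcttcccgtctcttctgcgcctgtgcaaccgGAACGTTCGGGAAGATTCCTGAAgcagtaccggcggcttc
The match begins 36 bases before the start in Hsph1 and 9 bases after it in Dnaja1, and Chordc1 holds 3 overlapping matches. A match describes letters in a window and is not evidence of binding.

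Among genes that glucocorticoids induce, the called members were all lower. Of 25 on the array, 23 passed the filter, 8 were lower and 0 higher, 6 had a positive log2 fold change, with a median log2 fold change of -0.46. The shares over all genes on the array were 0.911% called lower and 47.9% positive. The list mean was -0.99, -0.83, -0.62, -0.83 and -0.67 in HDM rats 1 to 5 and -0.03, -0.09 and 0.12 in the controls. Between 5 and 10 were called without 1 rat, with the lowest count without control rat 1 or 2, and 4 with slide row as a block. Of the 25, 3 passed the filter in one group only, among them Tsc22d3, whose spot in HDM rat 4 was left out as an outlier.

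Zbtb16, a zinc-finger repressor, had levels of -0.65, -0.26, -1.11, -0.60 and -0.82 in HDM rats 1 to 5 and 4.15, 4.05 and 3.83 in control rats 1 to 3. HDM rat 3 was lowest, and the groups were far apart (log2 fold change -4.70 ± 0.18, adjusted p = 6.9e-06), with all 3 of its probes called. Fkbp5, a co-chaperone that restrains the glucocorticoid receptor, was at 1.56, 1.54, 1.36, 1.37 and 1.39 in HDM rats 1 to 5 and 4.45, 4.01 and 4.19 in control rats 1 to 3 (log2 fold change -2.78 ± 0.12, adjusted p = 1.14e-05). The kinase gene Map3k6 stood at 2.15, 2.19, 2.20, 2.54 and 2.33 in HDM rats 1 to 5 and 4.28, 4.17 and 4.00 in control rats 1 to 3 (log2 fold change -1.87 ± 0.12, adjusted p = 0.000106). The Krüppel-like factors Klf15 and Klf9 fell by 1.57 and 1.25 on the log2 scale, and the NF-κB inhibitor Nfkbia by 0.86. Tsc22d3, which encodes the anti-inflammatory protein GILZ, was at 3.13, 3.38, 4.09 and 2.91 in HDM rats 1, 2, 3 and 5, its spot in HDM rat 4 being left out as an outlier, and at 5.03, 4.85 and 4.96 in the controls (log2 fold change -1.57 ± 0.26, adjusted p = 0.0191). Members not called included the metallothioneins Mt1 and Mt2A, the kinase Sgk1 and the phosphatase Dusp1. The palindrome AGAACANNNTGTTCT, a strict form of the glucocorticoid element, was in 0 of 23 windows of the list and in 5 of all 33469.

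Clock genes gave called members in both phase groups. Of 12 genes of the group that peaks with the Per genes, 11 passed the filter, 3 were lower and 0 higher, with a median log2 fold change of -0.56, and no member of the 12 was positive. Over all genes on the array 0.911% were called lower and 47.9% were positive. Per1 was at 1.46, 1.80, 2.81, 2.79 and 2.36 in HDM rats 1 to 5 and 4.32, 4.22 and 4.19 in control rats 1 to 3. The HDM lungs varied more than the controls and all lay below them (log2 fold change -2.00 ± 0.31, adjusted p = 0.0107), and 1 of its 2 tested probes was called. Per1 is also on the glucocorticoid list. Per2 was at -1.25, -1.08, -1.0, -0.81 and -0.54 in HDM rats 1 to 5 and 0.18, 0.51 and 0.60 in control rats 1 to 3 (log2 fold change -1.36 ± 0.17, adjusted p = 0.00481). Tef, a PAR bZIP output factor, was at 3.08, 3.14, 3.03, 3.26 and 3.53 in HDM rats 1 to 5 and 4.35, 4.43 and 4.11 in control rats 1 to 3 (log2 fold change -1.09 ± 0.14, adjusted p = 0.00437).

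In the opposite phase, 2 of 5 genes were higher and 1 was lower. Bmal1, the positive limb of the clock, was at 0.33, 0.16, 0.07, 0.16 and -0.56 in HDM rats 1 to 5 and -0.82, -0.88 and -1.12 in control rats 1 to 3 (log2 fold change 0.97 ± 0.19, adjusted p = 0.0308). Npas2, its partner, was at -0.18, -0.16, -0.22, -0.26 and -0.85 in HDM rats 1 to 5 and -1.22, -1.43 and -1.68 in control rats 1 to 3 (log2 fold change 1.11 ± 0.18, adjusted p = 0.0137). HDM rat 5 was closest to the controls in both. Cry1, a repressor that peaks late, fell, at -0.15, -0.12, -0.34, -0.40 and -0.03 in HDM rats 1 to 5 and 0.53, 0.61 and 0.63 in control rats 1 to 3 (log2 fold change -0.80 ± 0.11, adjusted p = 0.0062). The 2 higher members became 0 without control rat 2 or 3, and 0 of the day-phase genes were called with slide row as a block. The time of day at which each rat was killed is not given in the sources used here, and its part in these values was not tested. The E-box, searched as CACGTG, was in 4 of 11 day-phase windows (36.4%), those of Tef, Nr1d1, Bhlhe40 and Ciart. It was in 6.42% of all windows and in 912 of the 10159 tested genes with a window (8.98%). Only Tef of these was called, and its window at chr7:115206577-115206876 on the plus strand is shown with the match, 198 bases before the start, in capitals.
Tef: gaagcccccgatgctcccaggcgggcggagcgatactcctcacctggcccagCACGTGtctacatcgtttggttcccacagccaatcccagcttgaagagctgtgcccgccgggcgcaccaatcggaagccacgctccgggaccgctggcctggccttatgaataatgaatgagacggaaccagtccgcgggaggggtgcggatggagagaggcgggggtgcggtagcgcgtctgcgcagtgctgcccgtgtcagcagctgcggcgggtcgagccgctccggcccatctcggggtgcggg

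**Figure D4:**
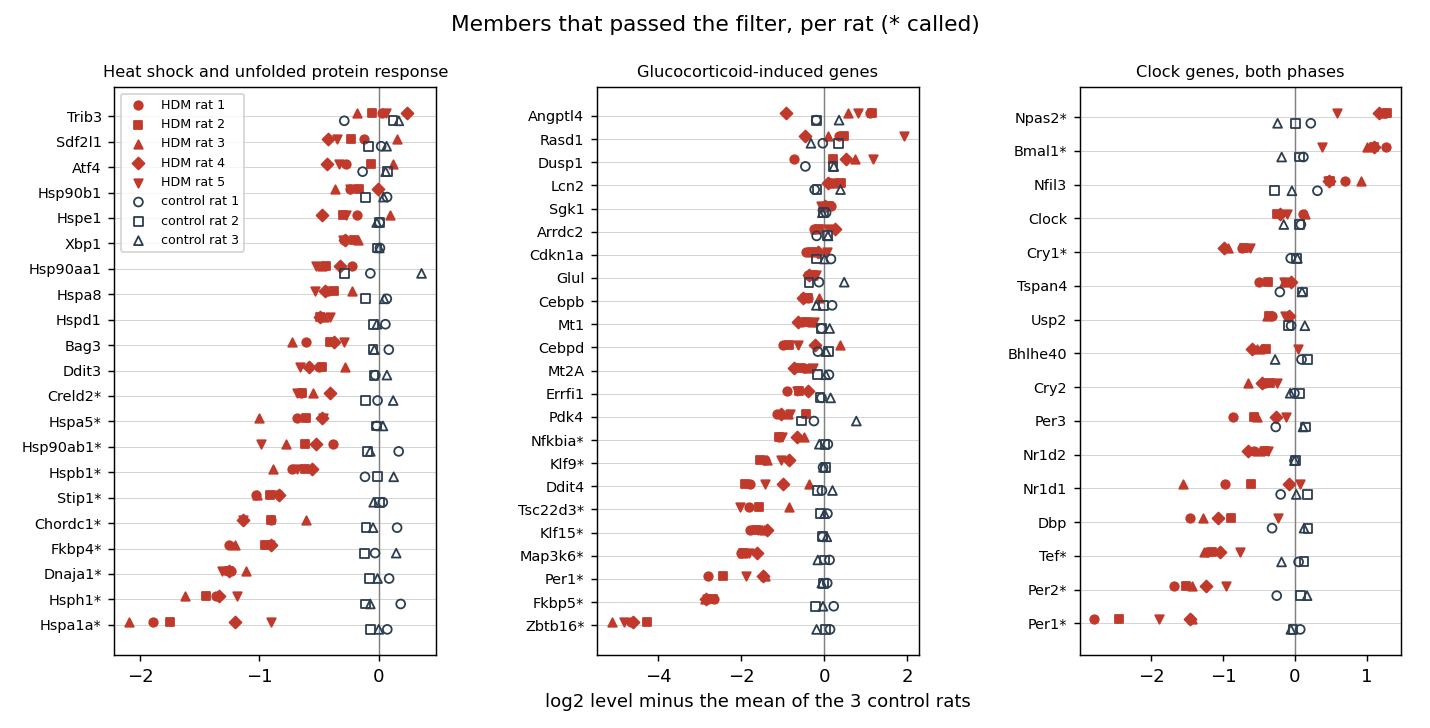
Heat shock, glucocorticoid-induced and clock genes that passed the filter, as log2 level minus the mean of the 3 control rats (x axis), with 1 filled red marker per HDM rat, 1 open marker per control rat and an asterisk for called genes. Zbtb16, at a log2 fold change of -4.70, lies farthest to the left, and Bmal1 and Npas2 lie to the right of the controls while Per1, Per2 and Tef lie to the left.

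Beyond the 10 largest changes, the next 20 genes by size were mixed in direction. Besides the members already given, those higher were Dnase2b, an endonuclease, at -0.93, -1.28, -0.20, -1.35 and -1.46 in HDM rats 1 to 5 and -3.28, -3.50 and -3.53 in control rats 1 to 3 (log2 fold change 2.39 ± 0.27, adjusted p = 0.00252), the cysteine protease inhibitor Csta (log2 fold change 2.29 ± 0.15, adjusted p = 0.000155) and F2rl2, protease-activated receptor 3 (log2 fold change 2.25 ± 0.21, adjusted p = 0.000833). Wfdc15a, a whey acidic protein domain gene detected in 1 control, was higher by 2.20 ± 0.23. Ceacam4, a granulocyte adhesion molecule, and Fcar, the immunoglobulin A receptor, followed at 1.93 ± 0.16 and 1.83 ± 0.18. The uncharacterised LOC102550425, at or under background in every control, was at least 4.57-fold higher.

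Those lower among the 20 included Tent5b, a poly(A) polymerase, at 1.52, 1.49, 1.54, 2.20 and 2.18 in HDM rats 1 to 5 and 4.29, 4.27 and 4.27 in control rats 1 to 3 (log2 fold change -2.49 ± 0.20, adjusted p = 0.000399). Gal, the neuropeptide galanin, was at -4.05, -3.97, -4.36, -4.30 and -4.01 in HDM rats 1 to 5 and -1.64, -2.25 and -1.74 in control rats 1 to 3 (log2 fold change -2.26 ± 0.16, adjusted p = 0.000216). HDM lungs lay far below controls in both. Abra, an actin-binding regulator of striated muscle, stood at -2.59, -2.14, -2.46, -3.33 and -1.64 in HDM rats 1 to 5 and -0.13, -0.58 and -0.06 in control rats 1 to 3 (log2 fold change -2.17 ± 0.33, adjusted p = 0.0104). The part of cardiac muscle content, which overlapped between the groups as given with that list, was not tested. Tmem169 was at -2.40 ± 0.26 and was well above background in 2 HDM lungs. Slc25a47, a mitochondrial carrier, was not well above background in any HDM lung and was at least 1.99-fold lower (adjusted p = 0.0241).

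The adipose tissue of the same rats was used to ask where the response of the lung differed from that of a second tissue. In the within-rat difference of lung and adipose tissue, 15 of 28384 probes were called (0.0528%), with 2624 at an unadjusted p under 0.05. Of the genes called in lung, 6 were called for this difference as well. Prok2 passed the test (adjusted p = 0.034), but it was undetected in the lung controls and on all 8 adipose arrays, so no size is given for its difference. Mmp9 differed by 2.75 ± 0.31, from 3.23 in lung and 0.48 in adipose tissue (adjusted p = 0.0477). In adipose tissue Mmp9 was detected in 4 of the 5 HDM and 2 of the 3 control samples. Ceacam4 differed by 2.15 ± 0.22, from 1.93 and -0.22. The glucose carrier Slc2a3, detected in 3 of the 5 HDM and all 3 control adipose samples, differed by 2.60 ± 0.30, from 1.63 and -0.97. Efnb1, the ephrin ligand B1, differed the other way, at -1.09 in lung against 0.33 in adipose tissue, as did Tmem116, at -1.20 against 0.21. For S100a8 the log2 fold change was 4.46 in lung and 4.66 in adipose tissue, for S100a9 4.09 and 3.83, for Zbtb16 -4.70 and -2.54, and for Fkbp5 -2.78 and -2.04, and none of these 4 differences was called. Leaving out any 1 rat left 0 or 1 probe called for the difference.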

How the data were processed

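Lung RNA of 8 rats (5 HDM, 3 control) was measured on 1-colour Agilent rat arrays. The deposited scanner files hold, per the file headers, background-subtracted signal intensity per spot from Agilent Feature Extraction 12.0.3.1 (a version named in the submitters' processing notes). A second deposited file holds log2 values that the authors shifted to the 75th percentile. It served as an alternative only, with 39 cells that read as month names taken as missing.

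Control spots and outlier spots were left out, spots of a probe averaged, and log2 intensity minus the array's 75th percentile tested with limma 3.58.1 (R 4.3.3, Benjamini-Hochberg). Probes well above background on all arrays of at least 1 group were tested, 28384 of 45598. They were called at an adjusted p under 0.05 and over 1.5-fold, after the study's thresholds. In this filter 434 probes passed through the HDM group alone and 1410 through the control group alone, and 31 and 22 of those were called. Each gene is given by its brightest tested probe, and probes were named from RefSeq through their accessions (21229 with a symbol). Values after ± are standard errors of the fit. On simulated data 72% of changes of 1 log2 unit and 95% of those of 2 were recovered, and 3.47% of the calls were unchanged probes. Each probe was drawn independently with its own within-group spread. Slide row effects and variation shared between genes were not simulated, so these shares do not cover them. The number of arrays limits the precision. A few genes that enter the counts are not reported here by name.

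The members and the gene lists were chosen with earlier results of these data known. Named were the genes ranked 11 to 30 by size among called genes, up to 5 called members per list and direction (or the 2 with the smallest p where none was called), the first 3 markers of each cell type, the 10 largest changes, and Ptafr, Vav3, Zbtb16, Gapdh and Hprt1. Chosen after their values were seen were Padi4, Clec4d, Camp, Elane, Prtn3, Ctsg, Ltf, Ngp, Cxcr1, Lcn2, Spn, Ccr3, Cxcl1, Cxcl2, Il6, Il17a, Il17f, Il22, P2ry13, Gpr34, Alox5, Il4, Il5, Il13, Il9, Il33, Irf1, Fos, Stip1, Hspb1, Hsp90ab1, Hspa5, Creld2, Hspa8, Hspd1, Hspe1, Klf9, Nfkbia, Tsc22d3, Mt1, Mt2A, Sgk1, Dusp1, Nr1d1, Bhlhe40 and Ciart.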

Additional observations from a re-analysis of the deposited data

Results flagged for a closer look

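Among 249 named genes and list means examined in the 5 HDM lungs, 16 (6.43%) had 1 lung farther from the rest than the 95% limit for a gap within 5 values, where chance gives about 1 in 20. The values that follow are that gap as a share of the group's range. For list means, the gaps were 0.804 for lymph node stroma (HDM rat 4 low), 0.771 for T cells (HDM rat 2 high), 0.774 for immediate early genes (HDM rat 5 high), 0.848 for inflammasome genes (HDM rat 3 high) and 0.729 for T cell receptor and JAK-STAT signalling (HDM rat 4 high).

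HDM rat 3 was the lung apart for 7 single genes. It was low for Col1a1 (0.799), Col1a2 (0.809), Col3a1 (0.825), the smooth muscle actin Acta2 (0.825) and Nlrp3 (0.842), and high for Tlr2 (0.777) and the erythroid factor Klf1 (0.745). HDM rat 4 was low for the chemokine Ccl19 (0.822) and the fatty acid elongase Elovl1 (0.786), HDM rat 5 was low for Npas2 (0.853), and HDM rat 2 was low for Tlr8 (0.868).

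For 6 genes called in lung, the change there differed from that in adipose tissue of the same rats (limma on within-rat differences). The difference was 2.75 log2 units for Mmp9, 2.60 for Slc2a3, 2.15 for Ceacam4, -1.42 for Efnb1 and -1.41 for Tmem116. Mmp9 and Slc2a3 were not detected in every adipose sample. Prok2, at least 16.3-fold higher in HDM lungs, was undetected on all adipose arrays, so its difference is given no size. In the fits that each left out 1 rat, 0 or 1 probe was called for the difference over all probes.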

How the results depend on the processing

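The number of called probes, 751, was 1245 with array weights and 839 to 353 without 1 rat, the lowest without control rat 2. It was 481 with normexp background correction, 390 with no filter on dim probes, 288 at a 2-fold threshold and 86 with limma's treat against 1.5-fold. With slide row as a block 80 were called and 8 within row 2, where HDM rat 5 alone met the controls. The methods' t-test gave 504. Median scaling gave 697, of which 52.2% were higher, against 57.7%. The 15 probes that differed between lung and adipose tissue became 1 with no filter and 0 to 1 without 1 rat.

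The labels number the rats of both groups but do not pair them. With the number as a replicate block 179 probes were called, and deviations of rats sharing a number correlated at -0.07, -0.01 and 0.02, so the block describes a number only. None of the called genes named by rule changed direction under any alternative run. The direction of the other called probes was not compared between runs. Changes near 1.5-fold, faint genes and lists that varied widely between rats, such as adipocyte and cardiac muscle genes, call for the most caution.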

Other observations

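Of the 348 called genes, 259 were on none of the lists. The genes named here were chosen after their values were seen, and no test was added to that of the fit. Paired immunoglobulin-like receptors of myeloid cells were among those higher in HDM lungs, with log2 fold changes of 1.56 ± 0.13 for Lilrb2, 1.5 ± 0.14 for Oscar, 1.16 ± 0.10 for Pirb, 1.12 ± 0.20 for Lilrc2 and 0.89 ± 0.16 for Lilrb4. Pirb, which couples to phosphatases, stood at 1.93, 1.83, 2.07, 2.00 and 1.83 in HDM rats 1 to 5 and 0.89, 0.80 and 0.64 in control rats 1 to 3. Fcnb, a ficolin of granulocytes and monocytes, and Lrg1, a leucine-rich glycoprotein of granulocytes and venules, were higher by 1.78 ± 0.19 and 1.23 ± 0.08.

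Further interferon-related genes outside that list were higher, Oas3 by 1.04 ± 0.17, Slfn4 by 1.23 ± 0.17 and Samhd1 by 1.04 ± 0.14. The glucose and lactate carriers Slc2a3 and Slc16a3 were higher by 1.63 ± 0.31 and 1.20 ± 0.11, while no gene of the glycolysis list was called higher. The RNA-binding protein Cirbp, induced by mild cold, was higher by 1.19 ± 0.12, called by 1 of 2 probes. Lower were Herpud1 of endoplasmic reticulum degradation, at -0.95 ± 0.09, and the cannabinoid receptor Cnr1, at -0.99 ± 0.15.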
